A study of Homo sapiens with 30 samples.

Results

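The genes described here are 9 members of the insulin-like growth factor (IGF) system: the receptors IGF1R, IGF2R and INSR, the receptor adaptors IRS1 and IRS2, and the secreted binding proteins IGFBP2, IGFBP3, IGFBP4 and IGFBP5. They were chosen by gene symbol, were present in all 4 count tables, and are 9 of 57773 genes listed there. RNA-seq was done on 3 established human prostate cancer cell lines, in a study of loss of the tumour suppressor RB1 and of inhibition of the histone demethylase LSD1 (gene KDM1A). After lanes of the same library had been summed, 22 libraries in 14 groups remained.

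C4-2-tet-shRB is a C4-2 derivative, itself a castration-resistant descendant of LNCaP, in which doxycycline turns on a short hairpin against RB1. In the first C4-2 experiment cells received no doxycycline, or 0.05 µg/ml for 3 or 30 days, each with vehicle or with 10 nM of the androgen dihydrotestosterone (DHT) for 24 hours, in medium with 8% charcoal-stripped serum plus 2% regular serum (1 library per group). In the second, cells received DMSO, 0.05 µg/ml doxycycline for 3 days, 10 µM of the LSD1 inhibitor GSK2879552 for 24 hours, or both, in 5% charcoal-stripped serum (2 libraries per group). LNCaP cells received vehicle or 1 µM GSK2879552 for 2 days in 5% charcoal-stripped serum (1 library per group). VCaP cells, which carry an ERG fusion, were transfected with 20 nM of a non-target siRNA (siNTC) or an RB1 siRNA (siRB) for 2 days (3 libraries per group). Their medium label gives 10% FBS, whereas their library names refer to charcoal-stripped serum. No group received doxycycline with a control hairpin, so in C4-2 cells loss of RB1 and the drug that induced it cannot be told apart. Where a group had replicates, whether they were separate cultures is not stated, and p-values then measure only the spread between these libraries. The C4-2 experiment with DHT had no replicate libraries, so its p-values do not measure such spread.

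IGF1 and IGF2 are secreted peptides that act through IGF1R, a receptor tyrosine kinase closely related to the insulin receptor INSR. Active receptors phosphorylate the adaptors IRS1 and IRS2, which recruit PI3 kinase and so feed AKT and mTOR, while IGF2R carries no kinase and takes IGF2 to lysosomes. The binding proteins hold IGFs outside the cell, either shielding them from the receptor or delivering them to it, and IGF1R signalling has long been studied as a growth and survival pathway in prostate cancer.

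Libraries held 13085157 to 22326960 counts in the C4-2 and LNCaP tables and 4311455 to 7107036 in VCaP. Levels are CPM, the read count relative to library size, scaled by TMM, which corrects for differences in RNA composition between libraries. RB1 was 56.5 to 63.9 CPM with siNTC and 5.35 to 7.41 with siRB, 22.1 to 51.1 CPM in the 6 C4-2 libraries without doxycycline and 4.64 to 10.0 in the 8 with it, and 26.4 and 33.1 CPM in LNCaP. In the C4-2 DHT experiment KLK3, the androgen-induced gene for prostate-specific antigen, was 3354 to 3658 CPM with vehicle and 6415 to 8387 with DHT. Without DHT it was 6201 to 8356 CPM in the C4-2 inhibitor experiment. LNCaP held 568 CPM with vehicle and 272 with the inhibitor, and VCaP 172 to 228. The luminal genes HOXB13, KRT8, KRT18, EPCAM and TMPRSS2 were at 49.5 CPM or more in every library. The luminal genes KLK2 and FOLH1 were uneven. KLK2 was at 19.2 to 38.1 CPM in LNCaP and at 642 CPM or more elsewhere. FOLH1 was at 12.9 to 20.7 CPM in VCaP and at 517 CPM or more elsewhere. ERG was at 274 to 328 CPM in VCaP and at most 0.218 elsewhere. Of markers of other cells, KRT5 (basal) was at 0 in every library and CDH5 (endothelial) at most 0.0489 CPM, whereas the basal gene KRT14 was at 5.34 to 7.73 CPM and the fibroblast gene LUM at 5.95 to 9.06 CPM in VCaP, the fibroblast gene COL1A1 reached 50.8 CPM and the endothelial gene VWF reached 23 CPM. In the C4-2 inhibitor experiment the libraries given GSK2879552 alone differed more than any other replicate pair (chi-square over genes, 7.88 times its degrees of freedom, against 1.61 to 3.56 in the other groups there), so results are given with a library left out where that ended a call. Each library is RNA from a population, so fewer expressing cells and less RNA per cell cannot be told apart.

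The promoters of 3 of the members that rose with DHT or the inhibitor, chosen after their values were seen, are shown first. Each is given as the 250 bases before the RefSeq start site (GRCh38.p14, 5′ to 3′ on the gene's strand). IGF2R also rose with DHT and is not shown. All 9 members had an entry in that table. Capitals mark GC boxes (GGGCGG on either strand) in IGF1R (chr15:98648289-98648538, plus strand) and IGFBP3 (chr7:45921273-45921522, minus strand), and an E2F word in IRS2 (chr13:109786584-109786833, minus strand).
IGF1R: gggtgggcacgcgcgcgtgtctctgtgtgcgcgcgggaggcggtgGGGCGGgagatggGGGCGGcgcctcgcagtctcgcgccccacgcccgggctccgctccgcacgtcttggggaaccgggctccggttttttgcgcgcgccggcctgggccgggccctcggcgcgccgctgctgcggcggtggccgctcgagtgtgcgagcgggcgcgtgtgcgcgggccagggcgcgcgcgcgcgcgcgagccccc
IGFBP3: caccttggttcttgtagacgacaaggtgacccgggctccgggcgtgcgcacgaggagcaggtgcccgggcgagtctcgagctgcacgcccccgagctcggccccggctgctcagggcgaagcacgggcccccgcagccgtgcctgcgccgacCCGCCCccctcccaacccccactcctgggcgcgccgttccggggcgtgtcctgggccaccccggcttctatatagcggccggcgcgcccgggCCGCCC
IRS2: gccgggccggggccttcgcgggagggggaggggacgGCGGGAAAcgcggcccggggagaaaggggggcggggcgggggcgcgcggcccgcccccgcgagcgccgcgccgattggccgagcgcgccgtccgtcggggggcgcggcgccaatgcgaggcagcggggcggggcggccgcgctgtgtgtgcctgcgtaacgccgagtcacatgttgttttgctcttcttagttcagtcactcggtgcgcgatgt
The GC content of these windows was 81.2% for IGF1R, 76% for IGFBP3 and 76.4% for IRS2, against a median of 58% over 35116 RefSeq promoters. Members not shown had 79.2% (IGF2R), 78.4% (INSR), 80.8% (IRS1), 71.6% (IGFBP4), 61.2% (IGFBP5) and 56.4% to 69.2% (IGFBP2). E2F words (TTTGGCGC, TTTCCCGC, TTTCGCGC or TTTGCCGC, both strands) matched once, at -214 of IRS2, against 2.79% of all promoters. GC boxes matched at -205 and -192 of IGF1R and at -98 and -6 of IGFBP3, and 42.6% of all promoters hold at least 1. IRS2 also held 5 GC boxes, left in lower case. Of the members not shown, IGF2R held 6, INSR 4, IRS1 4, IGFBP4 1 and IGFBP5 0. Each IGFBP2 window held 0 or 1. High GC content and GC boxes were thus not particular to the members shown. The forkhead word GTAAACA (both strands; 2.98% of promoters) matched in none of the members' windows, and TATAAA (both strands; 10.7%) matched in IGFBP4 alone, at -29. These matches are letters in short windows and were not tested against any binding data.

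The lines differed in which members of the system they transcribed. Per kb of exon, the scale on which genes can be compared, IGFBP2 led in VCaP with 58.4 to 64.1 CPM per kb, followed by IGF1R with 16.1 to 17.9 and IGFBP3 with 14.01 to 17.2, and the ranges of these last members overlapped. In LNCaP the mannose 6-phosphate receptor IGF2R led with 28.2 and 31.7 CPM per kb, ahead of IGFBP2 with 18.0 and 14.3. In the C4-2 inhibitor experiment IGF2R (25.5 to 41.5 CPM per kb) and IGFBP2 (26.2 to 34.3) overlapped. In the C4-2 DHT experiment the vehicle libraries held 36.6 to 38.5 CPM per kb of IGFBP2 and 8.98 to 9.41 of IGF2R.

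No pair of lines was sequenced in the same table, and kit, medium or both differed between most of them, so the following levels are descriptions with no test. IGF1R was at 224 to 249 CPM in VCaP, 16.5 to 66.6 CPM in the C4-2 libraries and 8.21 and 18.2 CPM in LNCaP, with no overlap between VCaP and the rest. IRS2, the adaptor best known from insulin signalling in liver and beta cells, was at 81.5 to 94.5 CPM in VCaP and at 3.37 to 12.7 CPM in every C4-2 and LNCaP library. IGFBP3, the main carrier of circulating IGFs, was at 64.0 to 78.5 CPM in VCaP, 7.87 to 29.3 CPM in C4-2 and 2.52 and 7.35 CPM in LNCaP.

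IGF2R ran the other way, with 110 to 116 CPM in VCaP against 455 to 740 CPM in the C4-2 inhibitor experiment and 504 and 566 CPM in LNCaP. The same C4-2 derivative held only 160 to 276 CPM of IGF2R in the DHT experiment, which used a total RNA kit, as LNCaP did, whereas the inhibitor experiment used an mRNA kit. INSR was the most even member, at 36.4 to 38.5 CPM in VCaP, 44.9 to 61.5 in C4-2 and 68.3 and 79.9 in LNCaP. IRS1, the other main adaptor, was at 17.0 to 24.9 CPM in VCaP, 8.04 to 16.3 in C4-2 and 20.7 and 27.1 in LNCaP. IGFBP2, the most abundant binding protein here, was at 278 to 306 CPM in VCaP, 83.2 to 183 in C4-2 and 85.7 and 68.0 in LNCaP.

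IGFBP4 and IGFBP5 were close to absent. IGFBP4, a binding protein that inhibits IGF action until it is cleaved, had 0 to 15 counts per library in C4-2 and LNCaP, and a count of 0 allows up to 0.216 CPM in LNCaP with vehicle. In VCaP it had 12 to 22 counts, or 1.88 to 3.25 CPM. IGFBP5, which binds extracellular matrix, had 24 to 48 counts per library in the C4-2 inhibitor experiment, 0 to 11 in the DHT experiment, 4 and 1 in LNCaP and 8 to 15 in VCaP. Intervals and limits on counts cover counting error only.

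**Figure D1:**
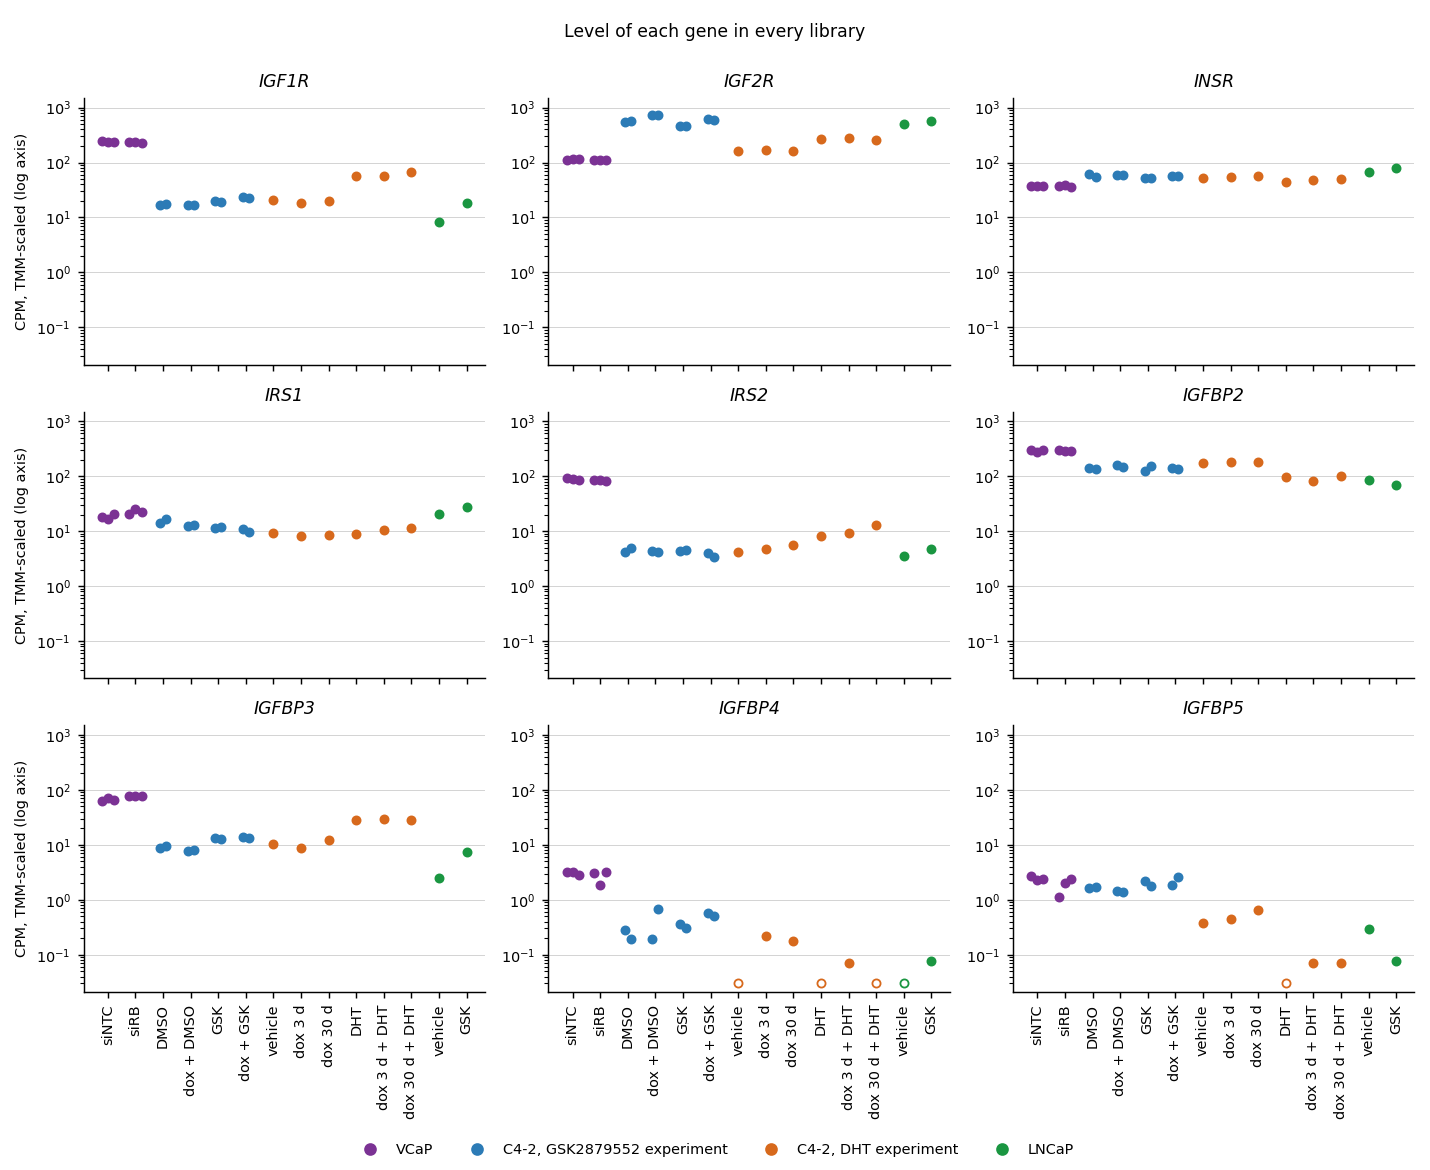
Level of each member in all 22 libraries (CPM, TMM-scaled, log axis), 1 point per library, grouped by treatment on the x axis and coloured by experiment (dox, doxycycline; GSK, GSK2879552). Open circles at the bottom are libraries with 0 counts. VCaP is higher than every other library in IGF1R, IRS2, IGFBP2, IGFBP3 and, on few counts, IGFBP4. It is lower than every other library in IGF2R and INSR. IGFBP4 and IGFBP5 sit near the floor.

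DHT produced the widest changes of the system. In C4-2-tet-shRB cells it raised IGF1R 3.03-fold and IGFBP3 2.76-fold, raised IRS2 and IGF2R by less, and lowered IGFBP2, whereas INSR fell slightly. Of the 8 members tested in the additive fit (3 doxycycline times plus DHT, 6 libraries), 4 rose and 3 fell, but 47.1% of all 17300 genes tested were called, 24.3% up and 22.8% down, so a call alone says little about these members. That fit left 2 residual degrees of freedom, and no treatment group in it was replicated. Its p-values rest on how evenly DHT acted across the doxycycline times, with 24.4 prior degrees of freedom borrowed from all genes. They do not measure spread between replicates, for DHT or for the doxycycline times, and small values are not replicated evidence. As a description, the tested members' median log2 fold change was 0.49 against -0.02 over all genes. IGFBP4 was not tested, and IGFBP5 passed the filter on low counts through its vehicle libraries, so its call had to point down. Adjusted p-values here and below, unless DESeq2 is named, are those of edgeR (quasi-likelihood) after the Benjamini-Hochberg procedure over all genes tested, ± gives the SE of a log2 fold change, and a call is an adjusted p under 0.05.

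IGF1R, the receptor that carries the growth signal, was at 20.5, 18.5 and 20.3 CPM with vehicle at 0, 3 and 30 days of doxycycline, and at 56.9, 55.9 and 66.6 CPM with DHT. All 3 DHT libraries lay above all 3 vehicle libraries. The log2 fold change was 1.597 ± 0.07 (3.03-fold, adjusted p = 1.18e-16), and it stayed at 1.53 to 1.66 whichever library was left out.

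IGF2R, which clears IGF2, was at 161, 168 and 160 CPM with vehicle and at 271, 276 and 261 CPM with DHT. The groups were far apart and the spread within each was small. It rose by 0.72 ± 0.05 on the log2 scale (1.65-fold, adjusted p = 4.47e-12).

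INSR moved the other way by a small amount. It was at 51.5, 54.2 and 57.7 CPM with vehicle and at 44.9, 48.2 and 49.2 CPM with DHT, each DHT library below all vehicle libraries. The log2 fold change was -0.20 ± 0.06 (adjusted p = 0.00983), but DESeq2 gave an adjusted p of 0.117, and without the 30-day vehicle or the 30-day DHT library it was 0.082 and 0.0949.

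Of the adaptors, IRS2 was at 4.26, 4.75 and 5.63 CPM with vehicle and at 8.08, 9.39 and 12.7 CPM with DHT. Its counts were low, at 68 to 183 per library, yet the groups did not overlap. IRS2 rose by 1.04 ± 0.13 on the log2 scale (2.06-fold, adjusted p = 1.93e-07). IRS1 was at 9.08, 8.04 and 8.65 CPM with vehicle and at 8.74, 10.5 and 11.5 CPM with DHT. Its DHT library without doxycycline lay within the vehicle range and the other two above it, and the log2 fold change of 0.26 ± 0.12 did not pass (adjusted p = 0.0798). DESeq2 did not call IRS1 (adjusted p = 0.367). With each library left out its log2 fold change was 0.17 to 0.41, and it was 0.40 to 0.41 when either library without doxycycline was left out.

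The binding proteins went in opposite directions. IGFBP3 was at 10.2, 8.71 and 12.3 CPM with vehicle and at 28.3, 29.3 and 28.1 CPM with DHT, and rose by 1.46 ± 0.10 on the log2 scale (2.76-fold, adjusted p = 7.25e-13). IGFBP2 was at 175, 179 and 183 CPM with vehicle and at 96.8, 83.2 and 99.7 CPM with DHT, a log2 fold change of -0.94 ± 0.06 (adjusted p = 1.87e-13). For both genes every DHT library lay outside the vehicle range.

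IGFBP5 had 6, 8 and 11 counts in the vehicle libraries and 0, 1 and 1 in the DHT libraries. Summed, 2 counts with DHT against 25 with vehicle give a ratio of 0.0972 (95% counting interval 0.0112 to 0.39). edgeR called it (adjusted p = 0.00243) and DESeq2 did not (0.0509).

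The DHT effect was next compared across the doxycycline times, with 1 library per arm, so the ratios carry only a 95% counting interval and no test. IGF1R had a log2 ratio of 1.47 (1.28 to 1.66) without doxycycline, 1.597 (1.41 to 1.79) at 3 days and 1.72 (1.54 to 1.90) at 30 days, and these intervals overlap. IGFBP3 had 1.47 (1.205 to 1.75), 1.75 (1.48 to 2.03) and 1.20 (0.96 to 1.45), and the interval at 30 days ends below the start of that at 3 days. IGFBP2 had -0.85 (-0.95 to -0.76), -1.11 (-1.21 to -1.01) and -0.88 (-0.97 to -0.79), lowest at 3 days. IGF2R was the steadiest, with 0.75, 0.72 and 0.70.

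At 2-fold or more with at least 100 counts in the pair, IGF1R and IGFBP3 passed at all 3 times, IRS2 at 30 days and IGFBP2 at 3 days. That limit was passed by 7.8%, 5.18% and 5.13% of the genes with such counts at 0, 3 and 30 days. IRS1 had -0.06 (-0.42 to 0.30) without doxycycline, 0.39 (0.05 to 0.73) at 3 days and 0.42 (0.09 to 0.74) at 30 days. In the fit with a term for the DHT effect under any doxycycline, which leaves 1 residual degree of freedom, 0 of 8 members were called against 1.4% of all genes. At an unadjusted p no member was under 0.05, and the smallest was 0.0622, for IRS1 (difference 0.46 ± 0.25, adjusted p = 0.495). DESeq2 called none of the members to which it gave an adjusted p (IGF2R, INSR and IGFBP2). Scaling by total counts in place of TMM moves the log2 ratio of every gene by -0.21, -0.18 and -0.16 at 0, 3 and 30 days, which changes no direction given here. With that scaling IGFBP2 passed 2-fold at all 3 times (-1.06, -1.29 and -1.041).

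**Figure D2:**
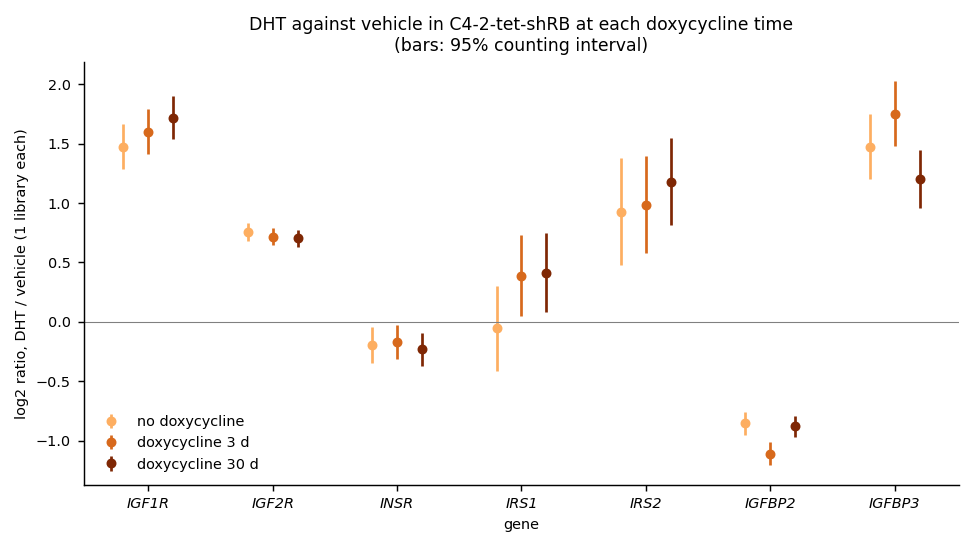
Log2 ratio of DHT to vehicle for 7 members at 0, 3 and 30 days of doxycycline, 1 library per arm, with 95% counting intervals as bars. IGF1R, IGF2R, IRS2 and IGFBP3 lie above 0 at all 3 times, IGFBP2 and INSR below 0, and IRS1 crosses 0 without doxycycline.

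RB1 depletion moved few of the members. In VCaP only IGFBP3 was called, in the C4-2 inhibitor experiment only IGF2R, and in the DHT experiment no member at 3 days and only IRS2 at 30 days. The shares of all genes called were 5.62% in VCaP, 7.84% for doxycycline with DMSO and 7.72% for doxycycline with GSK2879552, 0.468% at 3 days and 4.03% at 30 days. A single call among 8 or 9 members says little against these shares. The members' medians were -0.03 (VCaP), -0.06 and 0.10 (doxycycline with DMSO and with GSK2879552), 0.04 (3 days) and 0.14 (30 days), against -0.00 to 0.01 over all genes.

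In VCaP, IGFBP3 was at 64.0, 70.0 and 65.9 CPM with siNTC and at 77.8, 78.5 and 76.4 CPM with siRB, every siRB library above every siNTC library. It rose by 0.22 ± 0.06 on the log2 scale (1.17-fold, adjusted p = 0.0228). The call was lost with DESeq2 (0.15) and without siNTC replicate 1 (0.152) or 3 (0.103) or siRB replicate 1 (0.0529) or 2 (0.0922), while the fold change stayed at 0.19 to 0.25.

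IRS1 was at 18.1, 17.0 and 20.8 CPM with siNTC and at 20.8, 24.9 and 21.9 CPM with siRB. The highest control nearly touched the lowest siRB library, and the difference of 0.27 ± 0.12 did not pass (adjusted p = 0.186). IGF1R was at 249, 237 and 241 CPM against 233, 232 and 224 CPM, lower in all siRB libraries, with a log2 fold change of -0.07 (interval -0.15 to 0.00, adjusted p = 0.318). Intervals of fitted differences are approximate 95% intervals from the SE. For IGF2R, INSR and IGFBP2 the groups overlapped, and the intervals bound any difference to -0.13 to 0.07, -0.17 to 0.17 and -0.08 to 0.07.

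In the C4-2 inhibitor experiment IGF2R was at 542 and 560 CPM with DMSO and at 737 and 740 CPM with doxycycline. With GSK2879552 it was at 455 and 455 CPM without doxycycline and at 612 and 587 CPM with it. Each doxycycline library exceeded both of its controls. IGF2R rose by 0.42 ± 0.06 with DMSO (1.34-fold, adjusted p = 0.000252) and by 0.40 ± 0.06 with the inhibitor (1.32-fold, adjusted p = 0.00034), and both calls held with each library left out.

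The DHT experiment did not show that rise. IGF2R differed by 0.04 ± 0.06 at 3 days (interval -0.08 to 0.17) and by -0.03 ± 0.06 at 30 days (interval -0.16 to 0.09). A joint fit of both C4-2 experiments (14 libraries) gave a difference between their 3-day effects of 0.39 ± 0.09 for IGF2R (adjusted p = 0.0211), the only member of 9 called, against 1.04% of all genes. The call was lost without any of 7 libraries: each of the DMSO and doxycycline with DMSO libraries, the DHT library without doxycycline, and either 3-day library (adjusted p = 0.0511 to 0.167). The DHT experiment had no replicate libraries, so p-values of the joint fit, here and below, do not measure spread between replicates on that side. The experiments also differ in kit and medium, which cannot be told apart from each other here.

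Of the other members in the DMSO arms, IRS1 was at 14.1 and 16.3 CPM without and 12.5 and 13.1 CPM with doxycycline (-0.25 ± 0.12, adjusted p = 0.229). IGFBP3 was at 8.83 and 9.40 CPM without and 7.87 and 8.20 CPM with it (-0.18 ± 0.13, adjusted p = 0.438). In both, the doxycycline libraries were the lower ones, but neither passed. IGFBP2 was at 143 and 136 CPM without and 163 and 150 CPM with it (0.17 ± 0.08, adjusted p = 0.263). DESeq2 did not call IGFBP2 (adjusted p = 0.323), and with each library left out it differed by 0.10 to 0.23.

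After 30 days IRS2 had gone from 4.26 to 5.63 CPM with vehicle and from 8.08 to 12.7 CPM with DHT. It rose by 0.55 ± 0.16 on the log2 scale (1.47-fold, adjusted p = 0.0495), just under the threshold. The call was lost with DESeq2 (0.552), with RLE scaling (0.0534) and without any of 4 libraries, among them both 30-day libraries (0.0524 for vehicle, 0.621 for DHT), the DHT library without doxycycline (0.426) and the 3-day DHT library (0.052). At 3 days the IRS2 difference was 0.19 ± 0.17. In the direct comparison of 30 with 3 days, which shares libraries with both, 0 of 8 members were called by edgeR or DESeq2, against 0.324% of all genes. IRS2 (0.36 ± 0.16, adjusted p = 0.603) and IGF1R (0.20 ± 0.09, adjusted p = 0.586) were the 2 members under an unadjusted 0.05. For the 3-day effect the smallest unadjusted p of any member was 0.259, for IRS2.

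**Figure D3:**
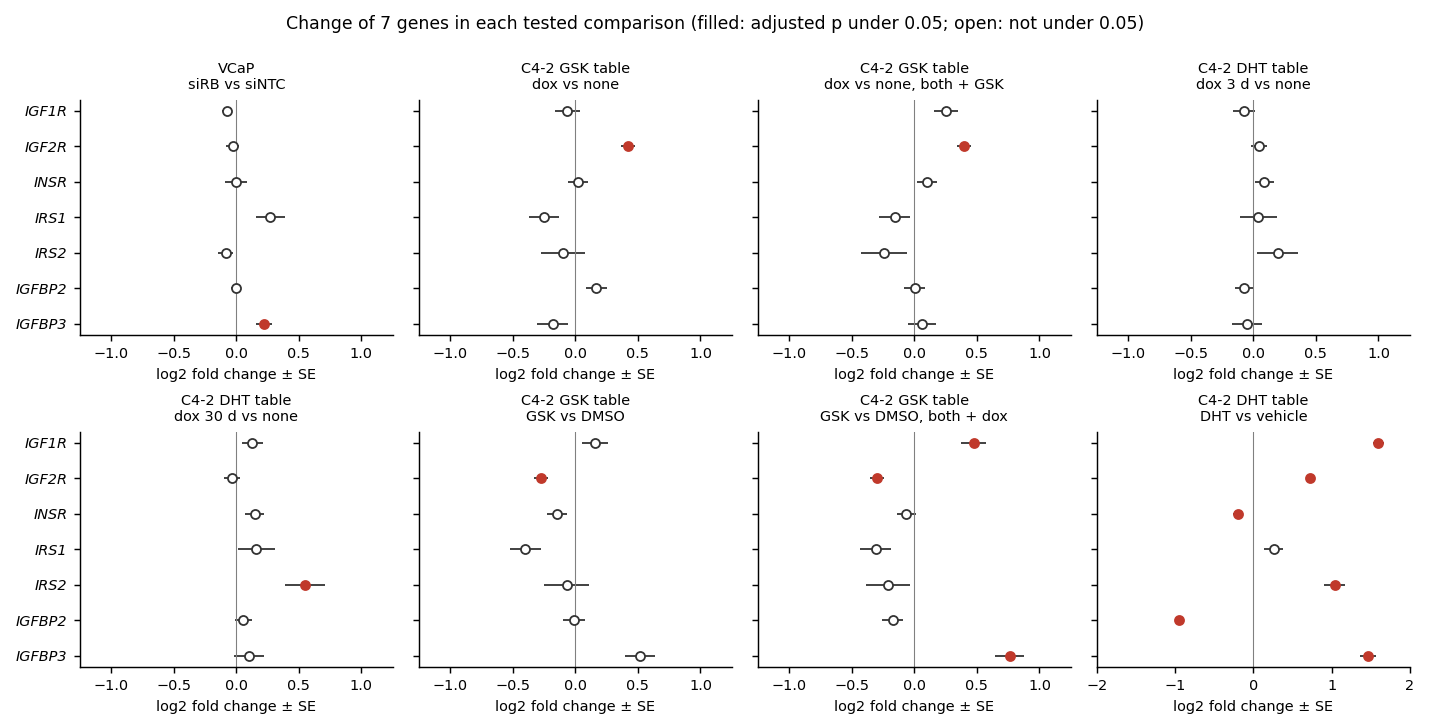
Log2 fold change with its SE for 7 members in 8 comparisons of VCaP and C4-2 cells (filled points, adjusted p under 0.05; the DHT panel has a wider axis; IGFBP4 and IGFBP5 are left out for their low counts). RB1 depletion gives 1 filled point at most per panel, the inhibitor with doxycycline gives 3, and DHT gives 6 of 7.

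The LSD1 inhibitor raised IGFBP3 and IGF1R and lowered IGF2R in doxycycline-treated C4-2 cells. Among cells without doxycycline only the fall of IGF2R passed. In LNCaP, where 1 library per arm allows no test, IGF1R and IGFBP3 were again the members with the highest ratios, both past 2-fold, while IGF2R was not lower. Of 9 members, 1 was called without doxycycline (0.678% of all genes) and 3 with it (1.34% of all genes). Only 0.0597% and 0.0923% of all genes were called down in these comparisons, and IGF2R was among them in both. The members' medians were -0.01 and -0.06, against -0.00 and 0.00 over all genes.

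IGF1R was at 17.1 and 17.7 CPM with DMSO and 19.7 and 18.9 CPM with the inhibitor, and with doxycycline at 16.8 and 16.5 CPM against 23.3 and 22.9 CPM. The inhibitor libraries were higher in both settings. The log2 fold change was 0.16 ± 0.10 without doxycycline (adjusted p = 0.565) and 0.47 ± 0.10 with it (1.39-fold, adjusted p = 0.0186). The call was lost without any 1 of the 4 doxycycline libraries (adjusted p = 0.151 to 0.325), while the value stayed at 0.45 to 0.48.

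IGFBP3 was at 8.83 and 9.40 CPM with DMSO and 13.3 and 12.8 CPM with the inhibitor, and with doxycycline at 7.87 and 8.20 CPM against 13.8 and 13.4 CPM. The inhibitor libraries stood clear of the controls in both settings. The difference was 0.52 ± 0.12 without doxycycline, which missed the threshold (adjusted p = 0.0626) but passed without the low-count filter (0.0398). DESeq2 did not call it (0.179), and with each library left out it was 0.48 to 0.56. With doxycycline IGFBP3 rose by 0.76 ± 0.12 (1.70-fold, adjusted p = 0.00156), a call lost only without doxycycline with DMSO replicate 1 (0.0518).

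IGF2R fell by 0.28 on the log2 scale without doxycycline (SE 0.06, adjusted p = 0.0262) and by 0.30 with it (SE 0.06, adjusted p = 0.0083), from the levels given above. The first call was lost without any of the 6 libraries not given GSK2879552 alone (adjusted p = 0.0536 to 0.2). The second was lost without any 1 of the 4 doxycycline libraries (0.0615 to 0.193).

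IRS1 was at 14.1 and 16.3 CPM with DMSO and 11.2 and 12.0 CPM with the inhibitor, and with doxycycline at 12.5 and 13.1 CPM against 10.9 and 9.81 CPM. Its inhibitor libraries were the lower ones in both settings, but the differences of -0.40 ± 0.12 and -0.31 ± 0.12 did not pass (adjusted p = 0.173 and 0.337). DESeq2 called neither (adjusted p = 0.424 and 0.769). With each library left out the first difference was -0.50 to -0.29. INSR, IRS2 and IGFBP2 differed by -0.21 to -0.01 in these comparisons with no call, by edgeR or by DESeq2. IGFBP2 with doxycycline (-0.17) was at -0.25 to -0.12 with each library left out. IGFBP5, on 24 to 48 counts per library, differed by 0.25 ± 0.27 and 0.63 ± 0.26 (adjusted p = 0.762 and 0.375).

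Whether the inhibitor's effect differed with doxycycline was tested directly. No member was called, by edgeR or by DESeq2, and 0.0163% of all genes were. At an unadjusted p, 1 of 9 members was under 0.05, IGF1R, with a difference of effects of 0.32 ± 0.14 (interval 0.04 to 0.59, adjusted p = 0.984 by edgeR). IGFBP3 had a difference of 0.24 (interval -0.09 to 0.58) and IGF2R of -0.02 (interval -0.18 to 0.13).

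In LNCaP, IGF1R was at 8.21 CPM (114 counts) with vehicle and 18.2 CPM (240 counts) with 1 µM GSK2879552, a log2 ratio of 1.15 with a 95% counting interval of 0.82 to 1.48. IGFBP3 was at 2.52 CPM (35 counts) and 7.35 CPM (97 counts), a log2 ratio of 1.54 (0.97 to 2.15). These 2 of the 7 members with at least 100 counts passed 2-fold upward, and 1.51% of all such genes did. IGF2R had a log2 ratio of 0.17 (0.12 to 0.22), INSR 0.23 (0.10 to 0.35), IRS1 0.39 (0.16 to 0.62) and IRS2 0.47 (-0.10 to 1.04), and IGFBP2 had -0.33 (-0.46 to -0.21). Dose and time differ from those in C4-2 cells, and KLK3 had a log2 ratio of -1.06 in the same pair of libraries.

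**Figure D4:**
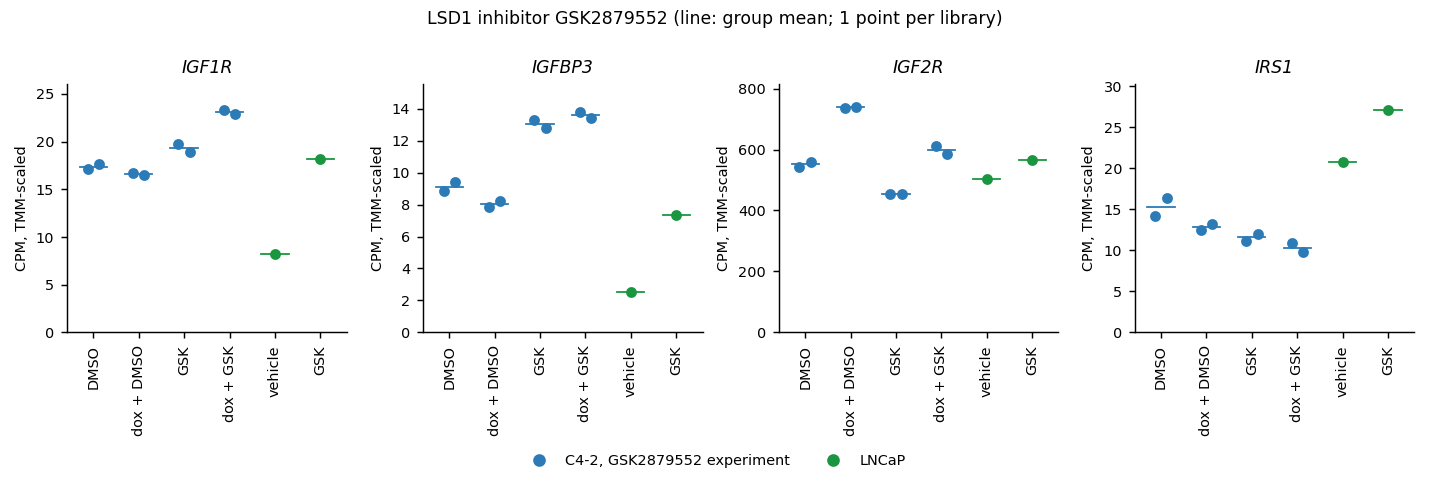
CPM of IGF1R, IGFBP3, IGF2R and IRS1 in the C4-2 inhibitor experiment (2 libraries per group, blue) and in LNCaP (1 per group, green), with the group mean as a line. With the inhibitor IGF1R and IGFBP3 are higher in both lines, whereas IGF2R and IRS1 are lower in C4-2 and higher in LNCaP.

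The other genes of the pathway were read from lists of ligands, further binding proteins, binding protein proteases and their inhibitors, adaptors, PI3K-AKT-mTOR and RAS-MAPK genes, 63 in all, of which 52 were tested in each C4-2 experiment and 50 in VCaP. With DHT 19 rose and 12 fell, 31 of 52 against 47.1% of all genes. Depletion of RB1 gave 1 up and 2 down in VCaP, 5 up and 3 down for doxycycline with DMSO, 8 up and 1 down for doxycycline with GSK2879552, and 0 at 3 days and 2 up at 30 days in the DHT experiment. The shares of all genes called in these comparisons were 5.62%, 7.84%, 7.72%, 0.468% and 4.03%. The inhibitor gave 0 calls without doxycycline and 2 up with it, against 0.678% and 1.34% of all genes.

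Among ligands, IGF1 was at 24.8 to 35.3 CPM in the C4-2 DHT experiment, 4.60 to 7.76 CPM in the C4-2 inhibitor experiment and at most 2 counts per library in LNCaP and VCaP. It rose with DHT by 0.23 ± 0.08 on the log2 scale (adjusted p = 0.0195). By time its log2 ratio was -0.04 (-0.23 to 0.16) without doxycycline, 0.32 (0.14 to 0.50) at 3 days and 0.39 (0.20 to 0.59) at 30 days, a difference that was not called (0.39 ± 0.15, adjusted p = 0.208). IGF2 had at most 10 counts and INS at most 1 count in any library, so these lines held little or no RNA for those ligands at this depth.

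One list holds genes that act on the binding proteins: HTRA1, a secreted protease that cleaves several of them, and the stanniocalcins STC1 and STC2, which inhibit the pappalysins that cleave IGFBP4 and IGFBP5. PAPPA itself had too few counts to be tested. With DHT all 3 fell, STC1 by 2.49 ± 0.22, STC2 by 1.51 ± 0.06 and HTRA1 by 0.87 ± 0.25 on the log2 scale (adjusted p = 1.91e-10, 7.64e-18 and 0.00481). STC2 ranged over 53.2 to 170 CPM in that experiment and STC1 over 0.728 to 9.58 CPM.

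Doxycycline raised STC2 by 0.44 ± 0.06 with DMSO and by 0.88 ± 0.06 with the inhibitor, and STC1 by 0.61 ± 0.10 and 0.81 ± 0.09, in the inhibitor experiment. Doxycycline also raised HTRA1 in cells given the inhibitor (0.69 ± 0.16, adjusted p = 0.0133), whereas its effect with DMSO missed the threshold (0.51 ± 0.16, adjusted p = 0.0673). In the DHT experiment the 3-day difference of STC2 was -0.02 ± 0.07, and the difference between experiments was 0.46 ± 0.10 (adjusted p = 0.0105), so STC2, like IGF2R, rose in 1 C4-2 experiment and not detectably in the other. The inhibitor raised STC2 (0.51 ± 0.06) and STC1 (0.45 ± 0.09) in doxycycline-treated cells (adjusted p = 8.21e-05 and 0.0158).

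Downstream, DHT raised 11 of 26 tested PI3K-AKT-mTOR genes and lowered 4, where 24.3% of all genes were called up and 22.8% down. MTOR, a kinase downstream of AKT, rose by 1.04 ± 0.05, and FOXO3, a transcription factor that AKT holds out of the nucleus, rose by 0.88 ± 0.06. EIF4EBP1, the translation repressor that mTOR phosphorylates, fell by 0.67 ± 0.05, and PIK3R1, a regulatory subunit of PI3 kinase, fell by 0.68 ± 0.06. Of 11 adaptors tested, 2 were called up and 3 down. The inhibitory GRB10 and GRB14 fell by 0.82 ± 0.06 and 1.12 ± 0.23. At 0, 3 and 30 days of doxycycline, with 1 library per arm, SHC1 had log2 ratios of 0.77, 0.58 and 0.60. Those of PTPN1 were 0.51, 0.40 and 0.39. EIF4EBP1 was also called up with RB1 depletion in VCaP (0.32 ± 0.07) and with doxycycline plus DMSO (0.44 ± 0.09). In the DHT experiment it differed by 0.04 ± 0.06 at 3 days and 0.06 ± 0.06 at 30 days with no call, and the difference between the C4-2 experiments did not pass (0.42 ± 0.12, adjusted p = 0.0864).

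Finally, the libraries were centred on their own table's mean log2 CPM to ask which genes had the pattern most like each of the 4 members that varied most. Across the 22 libraries, which share tables, controls and depth, Pearson's r is a description and carries no p. IGF1R was most like LIFR (0.96), AHNAK (0.95) and GLUD1 (0.95) among 11571 genes. IGFBP3 was most like CD163L1 (0.94), IGF1R itself (0.94) and CTNNA1 (0.93). IGFBP5 (CCNG2 0.93, FAM102B 0.92, GALNT3 0.92) and IGFBP4 (ABCB10 0.79, GIMAP2 0.74, DNAJC9 0.73) rest on few counts. The DHT libraries and the LNCaP pair lie at the ends of the IGF1R and IGFBP3 ranges. In VCaP the siRB libraries were higher for IGFBP3 (0.22) and slightly lower for IGF1R (-0.07, not called). The IGFBP3 call there was lost with DESeq2 and without any of 4 libraries.

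**Figure D5:**
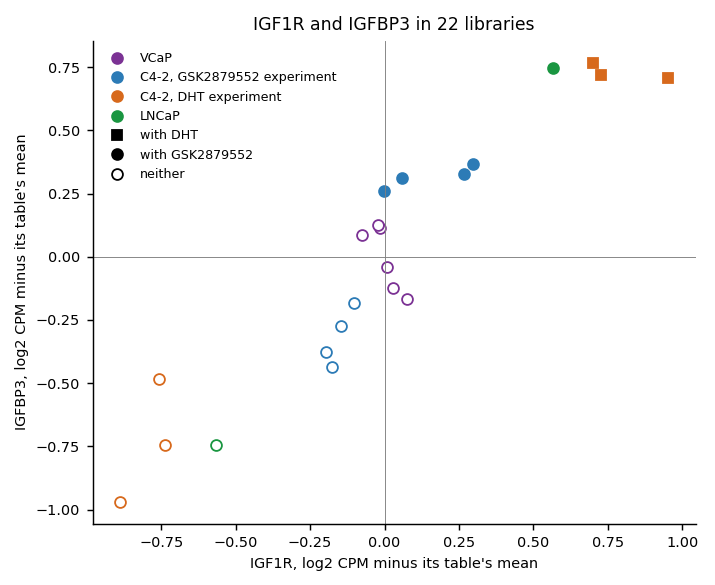
IGF1R against IGFBP3 in 22 libraries, each as log2 CPM minus the mean of its own table (squares, DHT; filled circles, GSK2879552; open circles, neither). The 3 DHT libraries and the LNCaP library with the inhibitor lie at the upper right, their controls at the lower left, and the VCaP libraries near the centre.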

How the data were processed

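RNA was sequenced from C4-2-tet-shRB, LNCaP and VCaP cells. The authors deposited 4 tables of raw read counts per gene, with 30 columns. Per the submitters' processing notes, reads were checked with FastQC 0.11.9, aligned with STAR 2.7.2 to hg19 (GRCh37) and counted with featureCounts 1.6.4. The strand setting, annotation version and treatment of multi-mapping reads are not given in the sources used here, so antisense overlap cannot be resolved for IRS2 and IGFBP5, the members with an overlapping exon on the opposite strand in GENCODE 29. Per the labels' protocols libraries of the DHT experiment and of LNCaP were made with a total RNA kit and the others with an mRNA kit.

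In the DHT and LNCaP tables both columns of a group carried 1 library name and differed by no more than sampling noise (chi-square over genes 0.983 to 1.01 times its degrees of freedom), so they were summed and counted as 1 sample, leaving 22 libraries. For C4-2 cells 29 gene symbols had turned into dates and were restored by Ensembl ID, and no member was among them. Counts were tested with edgeR 4.0.16 (R 4.3.3; TMM, filterByExpr by group, quasi-likelihood test, Benjamini-Hochberg adjustment over all genes tested), called at an adjusted p of 0.05. Pairs with 1 library per arm were given as TMM-scaled ratios with exact binomial (Clopper-Pearson) 95% counting intervals, a limit of 2-fold and at least 100 counts, with no test. Exon lengths came from GENCODE 29 and promoters from RefSeq. Alternatives were DESeq2 1.42.0, RLE size factors, no filter, each library left out, a replicate block, total-count scaling and a filter by the additive design. Scripts were tested on simulated data. One marker gene and 1 promoter word searched are not reported here. Named genes were the members, RB1, KDM1A and KLK3, of each pathway list in each comparison at most the 2 called genes with the smallest p per direction, and the 3 genes most like each of the 4 most variable members; HTRA1 and uncalled values were added after their values were seen. The members and lists were chosen with earlier results of these data known.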

Additional observations from a re-analysis of the deposited data

Results flagged for a closer look

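The 3-day effect of doxycycline on IGF2R differed between the C4-2 experiments, by 0.39 on the log2 scale in the joint fit.

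For IRS1 and IGFBP3 all siRB libraries of VCaP lay above their controls, and all C4-2 libraries given doxycycline with DMSO lay below theirs. For IRS1 the log2 difference was 0.27 in VCaP and -0.25 in C4-2 cells given doxycycline with DMSO. For IGFBP3 it was 0.22 in VCaP and -0.18 in C4-2 cells. Only IGFBP3 in VCaP passed the test. The other C4-2 arms did not all share these signs: with GSK2879552 the doxycycline libraries were higher for IGFBP3 (0.06), and in the DHT experiment the 30-day differences were 0.16 for IRS1 and 0.10 for IGFBP3. The share of all genes whose libraries lay apart like this was not computed. The difference between lines was not tested, as the tables are separate.

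For 3 members all C4-2 libraries given GSK2879552 lay below their controls, with and without doxycycline, while the LNCaP library given it lay above its control. The log2 differences for IGF2R were -0.28 without doxycycline, -0.30 with it and 0.17 in LNCaP. For INSR they were -0.14, -0.063 and 0.23, and for IRS1 -0.40, -0.31 and 0.39, in the same order. IRS2 also differed in sign (-0.068, -0.21 and 0.47), but its C4-2 groups overlapped without doxycycline. IGFBP5 differed in sign on few counts (0.25, 0.63 and -1.93). With 2 libraries per group, most members were separated from their controls in each of these C4-2 comparisons. The share of all genes separated in this way was not computed, so separation alone says little about these members. These differences between lines were not tested, and LNCaP has 1 library per arm and another dose and time.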

How the results depend on the processing

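No fitted difference of a member changed direction with its call under any alternative run. Leaving out a library kept 683 member results on their side of the threshold, ended the call of 32 and gave a call to 7. The number of members called moved as follows. DESeq2 called 0 in VCaP (1 by edgeR) and 0 at 30 days of doxycycline (1 by edgeR), where RLE size factors and the filter by the additive design, the latter chosen after seeing the data, also gave 0. With DHT, DESeq2 called 5 members in place of 7 (INSR and IGFBP5 lost), the filter by the additive design 6, and left-out libraries 5 to 8. Without the low-count filter the inhibitor without doxycycline gave 2 in place of 1. With each library left out the counts ranged from 0 to 1 in VCaP, 1 to 2 for doxycycline with DMSO, 0 to 3 for the inhibitor without doxycycline, 0 to 4 for the inhibitor with doxycycline, 0 to 1 at 30 days and 0 to 1 for the difference between experiments. The causes were not tested.

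With the replicate number as a block, the inhibitor without doxycycline called 0 members: IGF2R had an adjusted p of 0.107, and IGF1R with doxycycline had 0.0535. The block changed no other member call. The numbers did not pair the libraries: same-numbered libraries had correlations of 0.0113 to 0.0249 in VCaP and -0.325 to 0.135 in the C4-2 inhibitor experiment. No paired analysis was possible for the DHT and LNCaP tables because both numbers there are lanes of 1 library.

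Counts over all genes moved by more than 1.5 times. DESeq2 called 341 in place of 790 in VCaP, 30 in place of 81 at 3 days, 161 in place of 697 at 30 days, 14 in place of 56 between 30 and 3 days, 5323 in place of 8149 with DHT and 10 in place of 242 for the DHT effect under doxycycline. No filter gave 330 in place of 125 and 406 in place of 246 for the inhibitor without and with doxycycline, 39 in place of 3 for their difference, 222 in place of 81 at 3 days and 108 in place of 56 between times. The replicate block gave 908 in place of 1444 and 903 in place of 1422 for doxycycline with DMSO and with the inhibitor, and 161 in place of 246 for the inhibitor with doxycycline. Left-out libraries gave 279 to 3200 and 316 to 3201 for doxycycline with DMSO and with the inhibitor, 41 to 1735 and 78 to 947 for the inhibitor without and with doxycycline, 19 to 1002 at 3 days, 207 to 1965 at 30 days, 35 to 352 between these times, 0 to 195 for the inhibitor's difference with doxycycline, 80 to 601 for the difference between experiments, and in VCaP 515 and 524 without siNTC replicate 3 or 2. The fit of the DHT effect under doxycycline was not run with libraries left out, since no residual degrees of freedom remain. IGFBP4 and IGFBP5 are limited by depth in every table.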
